A study of Mus musculus with 7 samples.

Results

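An array labelled as primary hepatocytes of the mouse (pHep) was compared with arrays of mouse embryonic fibroblasts (MEF) across all annotated genes of an Affymetrix mouse expression array. The comparison holds 5 of the 7 arrays of the series, 1 of pHep and 4 of MEF, and all 18193 genes of 18193 that the annotation could name, so that no gene was chosen by its value. Each gene was read by 1 probe set, the group of short probes that measures 1 transcript, namely the one with the highest mean over the 7 arrays. Values are log2 expression levels after Robust Multiarray Analysis (RMA), and a difference of 1 is a 2-fold change.

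The strain on the labels was C57BL/6 for all cells, and neither group was reprogrammed. The pHep came from a 6-week-old C57BL/6J male by collagenase perfusion of the liver and a density step, and were plated for a few hours before RNA was taken, so that pHep RNA is that of 1 preparation after enzyme digestion and attachment. The MEF were grown in serum from mid-gestation C57BL/6J embryos without head and internal organs, and are therefore a mixed culture of embryonic connective tissue cells. The remaining arrays, 1 at passage 3 and 1 at passage 20, are of hepatic stem cells made from MEF with Oct4 and Hnf4α (iHepSC). They served to estimate the spread and also entered the mean by which the probe set of each gene was chosen. The spread of pHep was not measured, since it is a single array assumed to vary like the other groups, and the MEF replicates are not said to be separate cultures, so that p-values measure only the spread between these samples.

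Hepatocytes are the epithelial cells that make up most of the liver. They secrete albumin, clotting factors, complement and lipoproteins into the blood, clear drugs and hormones through cytochrome P450 and conjugating enzymes, turn ammonia into urea, hold and release glucose, and make bile. A set of transcription factors that bind each other's genes, among them Hnf4a, the Foxa factors, Cebpa, Onecut1 and the Hnf1 proteins, keeps these genes on. Fibroblasts instead produce the collagens, proteoglycans and contractile filaments of connective tissue, carry regulators of mesoderm such as Prrx1 and the Twist factors, and keep a Hox code of the body position they came from. MEF divide in culture, whereas most adult hepatocytes rest outside the cell cycle.

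The array medians lay between 6.28 and 6.33. Across probe sets, MEF replicates 2 to 4 had a correlation of 0.997 among themselves and of 0.960 to 0.961 with MEF replicate 1, so that 1 of the 4 MEF arrays stands apart, and counts that it moved by more than 1.5 times are given with and without it. Signals at the 3′ and 5′ ends of Gapdh differed by −0.24 to 0.07 on the log2 scale over these 5 arrays, and those of Actb by 0.14 to 0.37, with the pHep array at the upper end in both.

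The labels were checked against markers of the cell types, and not all genes of an adult hepatocyte were raised on the pHep array. Of 13 hepatocyte markers, 12 were higher in pHep and 1, Cyp2e1, was not. Albumin (Alb) stood at 15.13 on the pHep array and at 5.89, 5.62, 5.50 and 5.35 on MEF replicates 1 to 4. Hnf4a stood at 13.42 against 7.39, 7.51, 7.42 and 7.51, and Ttr, the thyroxine carrier, at 14.73 against 8.05, 7.97, 8.06 and 7.72. The pHep array lay far above every MEF array for each of these, and the other probe sets of Ttr gave differences of 10.11 to 10.82. Of 13 fibroblast markers, 12 were lower in pHep, and the exception was Lum, a collagen-binding proteoglycan, at 5.92 against 12.40, 8.95, 8.85 and 8.62, where MEF replicate 1 lay far above the rest and the difference of −3.79 had an adjusted p of 0.0927 with all arrays and 5.93e-06 without that replicate (limma). Lower is not absent. Col3a1 stood at 10.87 in pHep and at 13.03 to 14.31 in MEF, Col1a2 at 10.47 and 14.07 to 14.91, and Vim, the intermediate filament of mesenchymal cells, at 13.19 and 14.56 to 14.64, all high on the scale of the array on both sides by the probe sets used. Other probe sets put pHep lower, at 6.75 for Col3a1 and at 8.22 and 4.37 for Col1a2. Xist, the RNA that coats the inactive X chromosome of female cells, was 6.23 in pHep and 9.77 to 10.99 in MEF, and the Y-linked Kdm5d and Uty were higher in pHep by 2.14 and 1.62. Beside Cyp2e1, the liver genes Ass1 (5.14), Cyp8b1 (5.43) and Nr1i3 (5.24) lay at the level of MEF on the pHep array. Each of these was read by 1 probe set, and whether it reads the transcript well was not tested. The fetal liver gene Afp (12.44) and the bile duct gene Sox9 (10.90) were high. The name pHep is therefore kept as that of the labelled preparation, and how far its cells had the state of adult hepatocytes was not tested. Values of a bulk array cannot tell fewer cells of a type from less RNA per cell.

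**Figure D1:**
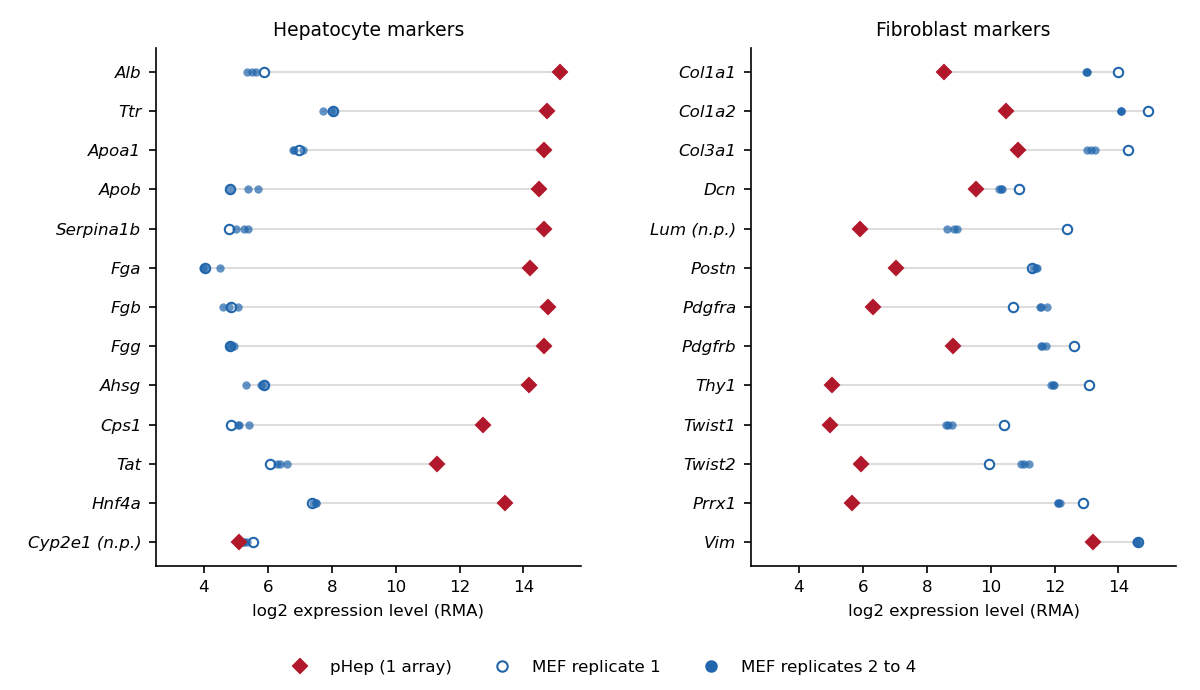
Log2 expression levels of 13 hepatocyte markers and 13 fibroblast markers, with 1 diamond for the pHep array, an open circle for MEF replicate 1 and filled circles for MEF replicates 2 to 4, and "n.p." for genes that did not pass the test. Alb lies at 15.13 on the pHep array against 5.35 to 5.89 in MEF and Thy1 at 5.04 against 11.88 to 13.08, while Cyp2e1 lies at 5.11 just below the MEF arrays.

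Of the 18193 genes, 2696 (14.8%) were higher and 2814 (15.5%) lower in pHep than in MEF (limma, adjusted p below 0.05), and 12683 did not pass. The counts of each gene list below are to be read beside these shares of all genes. Averaging MEF replicates 2 to 4 as 1 sample left fewer called genes in most lists. Among these were the lists of Hox genes, fatty acid oxidation, Kupffer cell markers, immediate early genes and chemokines. In every called gene the pHep array lay beyond all 4 MEF arrays. The median difference over all genes was −0.13. Differences of more than 2 were found for 915 genes that rose and 658 that fell, those of more than 4 for 295 and 179, those of more than 6 for 99 and 32, and those of more than 8 for 34 and 4, so that among the largest differences rises outnumbered falls. Without MEF replicate 1 the counts were 4917 higher and 5743 lower, and these held all genes called with the 4 MEF arrays.

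**Figure D2:**
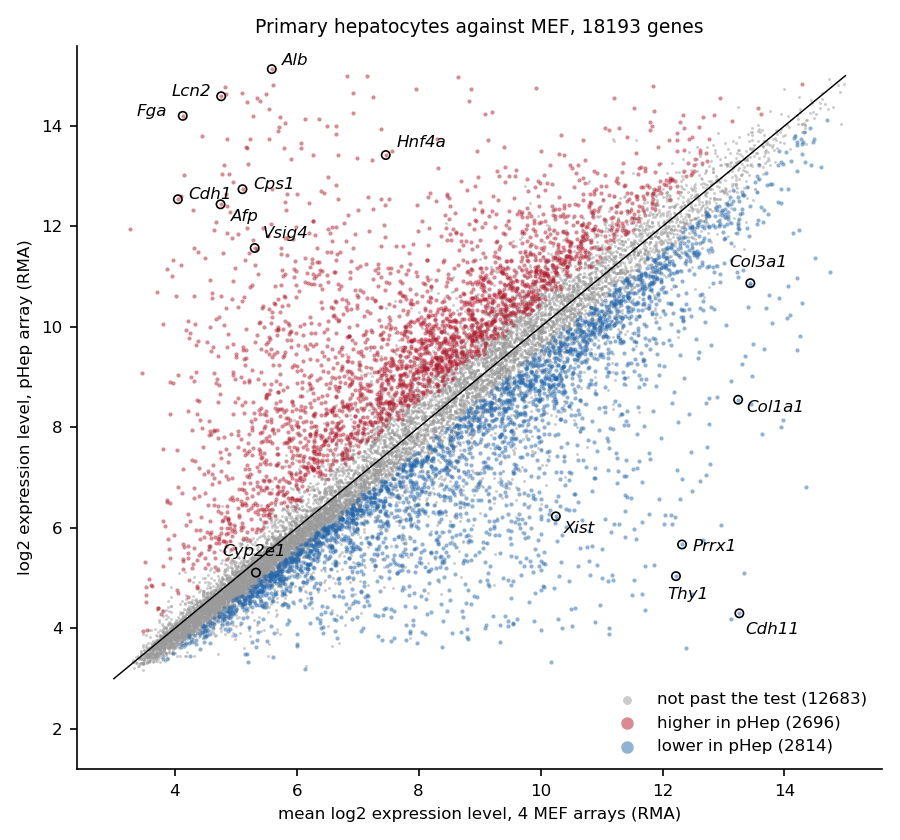
Each point is 1 of 18193 genes, with the mean log2 level of 4 MEF arrays on the horizontal axis, the log2 level of the pHep array on the vertical axis, and a diagonal where both are equal. The 2696 genes higher in pHep reach farther from the diagonal than the 2814 lower ones, with Fga at 10.07 and Cdh11 at −8.96 as the extremes.

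The 15 largest rises were mostly proteins that the liver secretes into plasma. The genes of fibrinogen, which forms the clot, took 3 of the 4 highest places by the probe sets used. Other probe sets gave 10.11 to 10.82 for Ttr and 10.27 for Serpina1b, so that the order depends on that choice. Fga stood at 14.20 on the pHep array and at 4.02, 3.96, 4.50 and 4.04 on MEF replicates 1 to 4, a difference of 10.07 (SE 0.23, adjusted p = 4.72e-06, limma), Fgb at 14.78 against 4.86, 5.08, 4.79 and 4.59, and Fgg at 14.64 against 4.81, 4.77, 4.83 and 4.94. In each of them the MEF arrays lay close together near the floor of the scale and pHep near its ceiling. Lcn2, a carrier of bacterial siderophores that hepatocytes release in the acute phase response, was between them at 14.59 against 4.92, 4.58, 4.83 and 4.71. Serpina1b (9.55) and Serpina1c (9.21) encode forms of antitrypsin whose sequences are so alike that probes cannot fully tell them apart. Igfbp1, an insulin-like growth factor binding protein, rose by 9.35, Apob, the scaffold of very low density lipoprotein, by 9.30, the haem carrier Hpx by 9.22, Ambp by 9.14, vitronectin (Vtn) by 9.11, and the inter-alpha-trypsin inhibitor chains Itih4 and Itih3 by 8.91 and 8.89. The only membrane transporter of the 15 was Slc2a2, the glucose carrier of hepatocytes, at 13.03 against 4.02 to 4.33 (8.88).

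Promoters of 6 of these genes are shown because they hold a sequence that the ranking did not use. HNF1 proteins bind a palindrome whose core letters are GTTAAT, or ATTAAC on the other strand. Of the 15 promoters, 7 (46.7%) held it in the 250 bases before to 50 bases after the start site. The share was 7.1% of all 32851 promoter windows of the mouse RefSeq table (build GRCm38.p6) and 5.28% of the windows of the genes tested. In Fga, Fgb, Alb, Igfbp1, Serpina1b and Serpina1c the motif began at positions −56 to −26 counted from the start site, and in Vtn at −112. The windows below run from 100 bases before the start site to 20 bases after it, 5′ to 3′ on the strand of the gene, and capitals mark the core motif.
Alb (chr5:90460770-90460889, plus strand): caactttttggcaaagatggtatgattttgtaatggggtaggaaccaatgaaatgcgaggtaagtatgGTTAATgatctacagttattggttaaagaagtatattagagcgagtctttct
Fga (chr3:83026053-83026172, plus strand): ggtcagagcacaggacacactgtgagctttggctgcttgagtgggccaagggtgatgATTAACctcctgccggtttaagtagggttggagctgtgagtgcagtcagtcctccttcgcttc
Fgb (chr3:83049844-83049963, minus strand): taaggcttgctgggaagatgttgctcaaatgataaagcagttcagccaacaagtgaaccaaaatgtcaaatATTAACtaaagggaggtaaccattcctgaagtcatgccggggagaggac
Igfbp1 (chr11:7197687-7197806, plus strand): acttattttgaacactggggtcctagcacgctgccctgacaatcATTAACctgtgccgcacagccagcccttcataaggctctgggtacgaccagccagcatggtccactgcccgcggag
Serpina1b (chr12:103738170-103738289, minus strand): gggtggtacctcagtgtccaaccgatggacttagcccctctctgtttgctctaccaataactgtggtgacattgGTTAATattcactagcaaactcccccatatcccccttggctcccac
Serpina1c (chr12:103904931-103905050, minus strand): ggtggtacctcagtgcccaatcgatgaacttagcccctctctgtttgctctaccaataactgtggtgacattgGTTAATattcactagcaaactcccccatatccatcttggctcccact
The Serpina1b and Serpina1c windows are near copies, so that they are not 2 separate examples. Among the genes that were higher by more than 4, 44 of 288 windows held the motif (15.3%), and among those lower by more than 4 it was 6 of 164 (3.66%). Over all 2845 windows of genes called higher it was 5.91%, against 5.28% over the windows of the genes tested. The letters searched for HNF4 (CAAAGTCCA), C/EBP (TTGCGCAA) and FOXA (TGTTTAC) were found in none of the 15 windows on either strand, which says only that these letters are not there. The looser C/EBP form TTNNGNAA, which includes the former, was in 8 of the 15 (53.3%) against 40.7% of all windows. The AP-1 letters TGANTCA were in 3 (20%) against 7.81%, and TATAAA in 4 (26.7%) against 13.6%. Over the windows of the genes tested these shares were 34.2%, 6.35% and 9.76%. A match of 6 letters is a description and no evidence of binding, and no test was made of these shares.

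The proteins that hepatocytes send to plasma rose almost as a whole. Of 18 plasma transport proteins, 17 were higher in pHep, with a median difference of 7.77 against −0.13 over all genes, and of 14 apolipoproteins and lipoprotein secretion genes 13 were higher (median 5.16). The apolipoproteins Apoc2 and Apoc3, which regulate the lipase of blood vessels, rose by 8.21 and 8.04. Apoa1, the main protein of high density lipoprotein, stood at 14.65 against 6.97, 7.10, 6.82 and 6.80. Mttp, which loads lipid onto Apob, rose by 2.21 by the probe set used and by 4.61 by its other one. The member that did not pass among plasma proteins was Serpina6, the cortisol carrier, at 4.43 against 4.30 to 4.68. Afp, the albumin of the fetal liver, was among the risers at 12.44 against 3.89, 5.06, 5.44 and 4.61 (7.69, SE 0.53, adjusted p = 0.000182, limma). Of the other probe sets of Afp, 2 gave 5.50 and 6.32, and 2 gave −0.13 and 0.13.

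Clotting factors, complement and acute phase proteins followed. Of 23 coagulation and fibrinolysis genes 18 were higher and 2 lower (median 4.98). Besides fibrinogen, Plg, the zymogen of plasmin, rose by 8.26, Kng1 by 8.25, prothrombin (F2) by 7.76 and the contact factor F12 by 7.49. The members that fell were tissue factor (F3, −1.99), which starts clotting, and urokinase (Plau, −1.01), the latter with an adjusted p of 0.0507 without MEF replicate 3 (limma). Of 19 complement genes 16 were higher (median 2.79), led by the protease Cfi (8.0), Cfb (6.68) and C4bp (6.47), and 1 was lower, Cd55, a membrane protein that shields cells from complement (−4.12). Of 22 acute phase genes 20 were higher (median 6.30). Orm1 and Hp, which bind drugs and haemoglobin, stood at 12.33 and 14.99 in pHep against 4.07 to 4.64 and 6.25 to 7.07 in MEF, while the serum amyloids Saa1, Saa2 and Saa3 rose by 4.41, 2.19 and 2.21, and Hamp, the hormone that closes iron export, by 5.20. The member that fell was the interleukin receptor antagonist Il1rn (−2.79).

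The transcription factors of the liver were higher in 16 of 22 cases and lower in none (median 2.34; 1 lower without MEF replicate 1). The homeobox factor Hhex had the largest rise, from 5.76 to 6.39 in MEF to 13.65 in pHep, followed by Onecut2 (6.82), Foxa3 (6.19), Hnf4a (5.96, SE 0.13, adjusted p = 4.57e-06, limma), Foxa2 (5.34), Foxa1 (4.98) and Onecut1 (4.67). These are factors of liver development that remain in hepatocytes. Cebpa, the factor of the quiescent hepatocyte, rose by 3.77, whereas Cebpb at 12.86 against 12.04, 10.43, 10.39 and 10.27 did not pass with all arrays and had an adjusted p of 3.24e-06 without MEF replicate 1 (limma). The other probe sets of Hnf4a gave 3.92, 0.73 and 8.49, so that the size of its rise depends on the probe set but not its sign.

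Nuclear receptors split. Of 25, 8 were higher and 6 lower, and the median was −0.11. Those that sense bile acids, fatty acids, drugs and oxysterols in hepatocytes rose: Nr1h4 by 5.09, Ppara by 4.50, Nr1i2 by 3.12 and Nr1h3 by 1.98, and with them their partner Rxra by 2.83, although its other probe sets gave 0.17 and 0.14. Another drug sensor, Nr1i3, did not pass, at 5.24 against 5.24 to 5.34. Nr2f1, a regulator of mesenchymal and neural tissue, had the largest fall (−4.26), and Nr4a1, an early response gene, fell by 1.58.

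Genes of drug metabolism were mostly higher, with gaps. Of 30 cytochrome P450 genes 20 were higher and 1 lower (median 2.77; 2 lower without MEF replicate 1). Cyp2d10 stood at 11.93 in pHep against 4.31 to 4.88 in MEF, Cyp2j5 at 11.24 against 4.01 to 4.20, and the main drug-inducible enzyme of this family, Cyp3a11, at 10.61 against 4.13 to 4.48. Cyp2e1, the ethanol-oxidising enzyme that is among the most abundant in adult liver, had a single probe set, at 5.11 on the pHep array and 5.52, 5.26, 5.22 and 5.34 on MEF replicates 1 to 4 (−0.22, adjusted p = 0.307, limma). Both groups were at the low end of the scale there, and probe sets with several symbols were not used. Cyp2c54 at 5.66 against 5.70 to 6.14, Cyp4a14 at 4.51 against 4.32 to 4.73 and Cyp4a12a at 5.96 against 6.01, 7.94, 7.81 and 7.68 were likewise not above the MEF, and without MEF replicate 1 Cyp4a12a was lower (adjusted p = 3.62e-05, limma). The single P450 that fell was Cyp1b1, the extrahepatic member of its family, from 12.89 to 12.98 in MEF to 6.05 in pHep.

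Conjugating enzymes rose in 24 of 33 cases and fell in 2 (median 1.74). The sulfotransferase Sult1a1 rose by 8.79, the glutathione transferase Gsta3 by 8.16 and the glucuronosyltransferase Ugt2b34 by 7.55, while the transferase Gsta4 fell by 2.20. Without 1 of MEF replicates 2 to 4, 22 were higher and 1 lower. The carboxylesterase Ces1f was at 4.10 against 4.06 to 4.36. For Ces1d the probe set used gave −0.19 and the other probe sets 1.5 and 2.20. Of 29 genes of bile acid synthesis and transport 18 were higher and 1 lower (median 1.77; 2 lower without MEF replicate 1). The canalicular pump Abcc2 rose by 6.07, the acyl-CoA synthetase Slc27a2 by 6.52, the hydroxylase Cyp39a1 by 6.47, the uptake carrier Slc10a1 by 4.09 and the bile salt export pump Abcb11 by 2.64. Cyp7a1, which starts the classic route, stood only at 6.02 against 5.0 to 5.15 (0.94, adjusted p = 0.0027, and 0.0548 with Gapdh centring, limma), and Cyp8b1, which sets the share of cholic acid, at 5.43 against 5.51 to 5.77. The import carrier Slco1a1 (−0.07) did not pass.

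Of 13 genes of the urea cycle and glutamine 10 were higher and 1 was lower (median 1.79). The first enzyme of the cycle, Cps1, stood at 12.74 against 4.85, 5.11, 5.06 and 5.42 and the last, Arg1, at 12.28 against 4.51, 5.19, 4.98 and 4.93, both far above all MEF arrays. The steps between them were closer to MEF by the probe sets used. Otc rose by 1.79 by the probe set used, while its other probe sets gave −0.17 and 0.58. Asl rose by 1.43, and Ass1, read by the only probe set kept for it, stood at 5.14 against 5.02, 5.24, 5.36 and 5.12 (−0.05). Probe sets with several symbols were left out, and whether this one reads the transcript well was not tested. Oat, which makes glutamate from ornithine, was lower by 2.41. Genes of amino acid breakdown rose in 27 of 36 cases and fell in 1 (median 1.71; 2 lower without MEF replicate 1), led by the methyltransferase Bhmt (7.15), the methionine adenosyltransferase Mat1a (7.12) and the glycine cleavage enzyme Gldc (6.26). Tat, the tyrosine aminotransferase induced by glucocorticoids, stood at 11.30 against 6.06 to 6.60. Hal at 5.94 against 5.09 to 5.78 and Agxt at 5.37 against 5.22 to 5.64 did not pass. The single fall, Bckdhb (−0.65), was not called without MEF replicate 2 or 3 (adjusted p = 0.0783 and 0.065, limma).

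**Figure D3:**
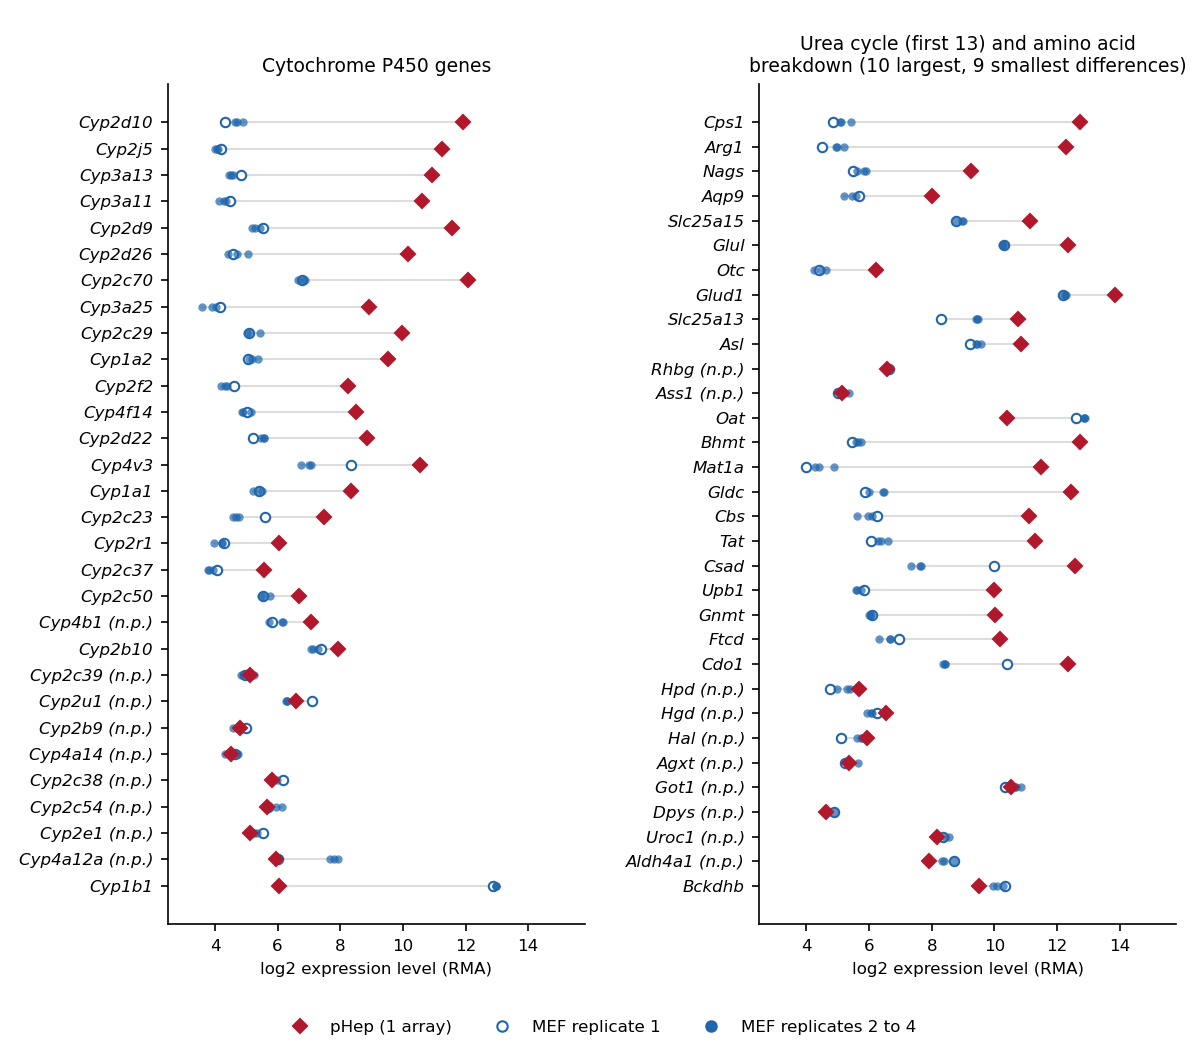
Log2 expression levels of 30 cytochrome P450 genes (left) and of 13 genes of the urea cycle with the 10 highest and 9 lowest differences among genes of amino acid breakdown (right), with a diamond for the pHep array, an open circle for MEF replicate 1, filled circles for MEF replicates 2 to 4 and "n.p." for genes that did not pass the test. Genes such as Cyp2d10 at 11.93 and Cps1 at 12.74 lie far to the right in pHep, whereas Cyp2e1 at 5.11 and Ass1 at 5.14 lie at the level of the MEF.

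Carbohydrate genes changed by isoform. Of 33 genes of glucose, fructose and glycogen, 12 (36.4%) were higher and 3 (9.1%) lower, against 14.8% and 15.5% of all genes (median 0.52). Genes of enzymes that make and release glucose were higher, G6pc by 4.98, Fbp1 by 4.81 and Pck1 by 3.53 (0.01 and 0.08 by its other probe sets), as were the glycogen phosphorylase of liver, Pygl (5.31), its glycogen synthase Gys2 (2.47) and the fructokinase Khk (2.36). The 3 that fell were the glucose carrier Slc2a3 (−3.02), the hexokinase Hk2 (−1.96) and the pyruvate kinase Pkm (−1.80). Slc2a3 had an adjusted p of 0.0571 without MEF replicate 3 (limma). Without MEF replicate 1, 19 were higher and 5 lower. Of 23 genes of fatty acid oxidation and ketone synthesis, 19 were higher and none lower (median 1.60; 1 lower without MEF replicate 1, and 12 higher when the arrays were centred on Gapdh). The binding protein Fabp1 rose by 5.96, the thioesterase Acot1 by 4.90 and the peroxisomal enzyme Ehhadh by 4.61. Genes of cholesterol and fatty acid synthesis differed less, with 11 of 31 higher (35.5%) and 3 lower (9.7%). The counts were 19 and 7 without MEF replicate 1, and 1 was lower without 1 of MEF replicates 2 to 4. The desaturase Scd1 had the largest rise (2.61). Of 36 genes of the respiratory chain, 1 was higher and 1 lower (11 and 12 without MEF replicate 1), and all lay between −0.78 and 1.12. Iron, haem and metal genes rose in 17 of 22 cases (median 1.58; 2 lower without MEF replicate 1, and 13 higher with Gapdh centring), among them the zinc carrier Slc39a4 (5.17) and the iron sensor Tfr2 (4.99). Peroxisome and antioxidant genes rose in 14 of 28 cases and fell in 3, with the urate oxidase Uox at 11.12 against 6.33 to 6.61, and with Nqo1, a quinone reductase of many cultured cells, at 5.64 against 10.69 to 10.99.

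In the liver, hepatocytes next to the portal vein and next to the central vein use different enzymes. Genes of both zones were higher: 11 of 19 periportal ones with none lower (median 1.59) and 10 of 19 pericentral ones with 2 lower (median 0.94). Periportal genes that rose included Hpx (9.22), Cps1 (7.63) and Arg1 (7.38), and pericentral ones Aldh1a1 (5.66), Cyp2c29 (4.79) and Cyp1a2 (4.37). The periportal Ass1 (−0.05) and Hal (0.39) and the pericentral Cyp2e1 (−0.22) did not pass, and the pericentral Oat was lower (−2.41). Glul, the glutamine synthetase of the innermost ring, stood at 12.35 against 10.25 to 10.35, and Lgr5 (−0.88), Axin2 (−0.92) and Rhbg (−0.00) did not pass, although Axin2 did without MEF replicate 1 (adjusted p = 0.0378, limma). Of 18 genes that differ between male and female mouse livers 7 were higher and 1 lower (3 lower without MEF replicate 1), with the male-biased Cyp2d9 at 11.56 against 5.17 to 5.54 and the male-biased Hsd3b5 at 4.83 against 4.63 to 4.96. For Hsd17b13, a member of the periportal list, the probe set used gave 0.23 and another 9.36. The zone lists share members with the metabolic lists and are not separate counts.

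**Figure D4:**
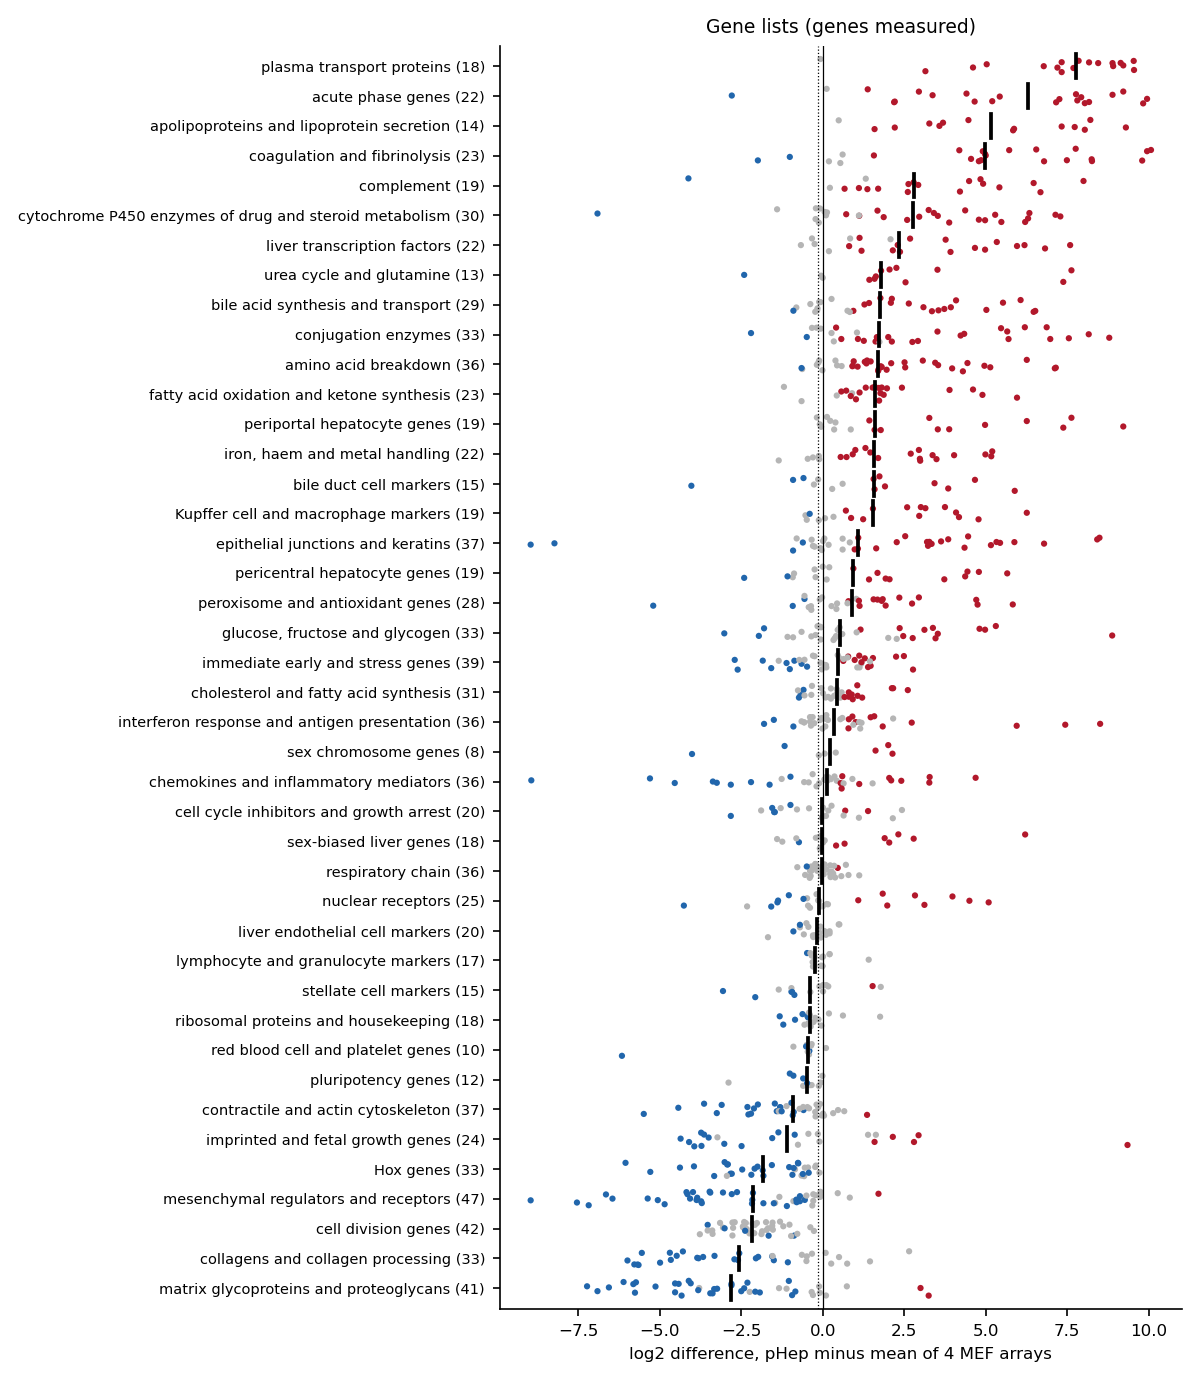
Differences in log2 level between the pHep array and the mean of 4 MEF arrays for the measured members of 42 gene lists, ordered by their median, with 1 point per gene (red where higher, blue where lower, grey where the test was not passed), a black bar at the median, a solid line at 0 and a dotted line at the median of all genes, −0.13. Plasma transport proteins have the highest median (7.77) and matrix glycoproteins and proteoglycans the lowest (−2.80).

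Epithelial genes separated the groups as well. Of 37 genes of epithelial junctions and keratins 21 were higher and 4 lower (median 1.09; 8 lower without MEF replicate 1). E-cadherin (Cdh1), which joins epithelial cells, stood at 12.54 against 3.98, 3.86, 4.31 and 4.05, the desmosomal cadherin Dsg2 rose by 8.42, the claudin Cldn2 by 6.79, and the keratins Krt8 and Krt18 by 5.44 and 5.16. The 2 genes with the largest falls in this list were those of mesenchymal junctions, the cadherin Cdh11 (−8.96) and the connexin Gja1 (−8.23), while the connexins of hepatocytes Gjb1 and Gjb2 rose by 4.35 and 3.20. Bile duct markers were higher in 8 of 15 cases and lower in 3 (median 1.56). Sox9, a factor of bile duct and progenitor cells, stood at 10.90 against 7.78, 7.52, 7.47 and 7.09, and Pkhd1, Prom1 and Krt7 rose by 5.89, 4.67 and 3.85. Krt19 (0.61) did not pass, and Epcam (−0.91) and the water channel Aqp1 (−4.03) were lower. A second probe set of Epcam gave 0.65. The part of bile duct cells in the pHep preparation was not tested.

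Genes of connective tissue matrix were mostly lower in pHep. Of 33 collagens and collagen processing genes, 22 were lower and none higher (median −2.56). The largest falls were those of Col6a2 (−5.99) and of Loxl1 (−5.78), an enzyme that cross-links elastin and collagen. Col1a1, the main fibrillar collagen, stood at 8.55 against 13.97, 13.02, 12.97 and 13, and the collagen chaperone Serpinh1 at 8.46 against 13.77, 13.35, 13.34 and 13.33. The collagens of basement membranes, Col4a1 (−0.49) and Col4a2 (−0.64), did not pass, and Col18a1 (2.65), which hepatocytes also make, did not pass. Without MEF replicate 1, 24 were lower and 5 higher, with adjusted p = 2.7e-06 for Col18a1 and 0.0241 for Col4a2 (limma). Of 41 matrix glycoproteins and proteoglycans 29 were lower and 2 higher (median −2.80). Ogn, a small leucine-rich proteoglycan, fell from 11.05 to 11.22 to 3.89, the elastic fibre protein Fbln5 from 12.36 to 13.34 to 5.75, and thrombospondin (Thbs1, −5.81) and tenascin (Tnc, −5.73) were lower too. Fibronectin (Fn1), which hepatocytes secrete into plasma, was 14.74 against 14.62, 13.80, 13.76 and 13.81 and did not pass with all arrays, but did without MEF replicate 1 (adjusted p = 0.00947, limma) and as the mean of its probe sets (0.00315). Spon2 (3.25) and Prelp (3.00) were the members that rose, Spon2 with 0.36 by its other probe set. Of 37 contractile and actin cytoskeleton genes 19 were lower and 1 higher (median −0.92; 2 higher without MEF replicate 1, and 12 lower with Gapdh centring). Actg2, Tagln and Acta2, the actins and the actin-binding protein of smooth muscle and myofibroblasts, fell by 5.49, 4.43 and 3.64. The general actins Actb (−0.14, but 2.23 by its other probe set) and Actg1 (−0.42) did not pass, Actg1 with an adjusted p of 0.0122 without MEF replicate 1 (limma).

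The 15 largest falls were those of genes with diverse roles, from adhesion and signalling to matrix, retinoid binding and a P450 enzyme. Cdh11, a cadherin of mesenchymal cells, stood at 4.30 against 13.68, 13.08, 13.09 and 13.18 (SE 0.25, adjusted p = 7.25e-06, limma), Ptgs2, the inducible prostaglandin synthase, at 4.18 against 13.16, 13.02, 13.11 and 13.19, and pleiotrophin (Ptn), a heparin-binding growth factor, at 3.60 against 12.84, 12.15, 12.23 and 12.33. The pHep array was near the floor in all of them. The others included the sphingosine phosphate receptor S1pr3 (−7.80), S100a4 (−7.54), Stmn2 (−7.35), the fibroblast surface marker Thy1 (−7.18), the retinoic acid binding protein Crabp1 (−7.13), the pentraxin Ptx3 (−6.98), C1qtnf3 (−6.83) and Cthrc1 (−6.83). Of 12 promoter windows of 11 of these genes, 1, that of Fbln5, held the HNF1 core motif (8.33%).

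Regulators of mesenchyme fell in 32 of 47 cases and rose in 1, Ptch1 (median −2.14; 3 higher without MEF replicate 1). The homeobox factors Prrx1 and Prrx2, markers of limb and body wall mesenchyme, stood at 5.67 and 5.25 against 12.10 to 12.89 and 11.34 to 12.54. Twist2 and Twist1 fell by 4.85 and 4.15 and the receptor Pdgfra by 5.06, while Zeb2 (−0.08) did not pass. The other probe sets of Zeb2 gave −1.33 to 0.34. Of 33 Hox genes 24 were lower and none higher (median −1.82), with Hoxc8 at 3.96 against 9.59, 10.20, 10.13 and 10.11, Hoxa9 at 4.52 against 9.15, 10.11, 9.94 and 10.03 and Hoxa5 at 5.0 against 9.04, 9.47, 9.53 and 9.47. Hoxd10, a posterior gene, was at 3.64 against 8.30, 5.92, 5.90 and 6.17 and did not pass, with MEF replicate 1 far from the others, and without it the adjusted p was 9.95e-06 (limma). Imprinted and fetal growth genes fell in 12 of 24 cases and rose in 5 (median −1.11). The fetal growth factor Igf2 stood at 9.42 against 13.50, 13.35, 13.33 and 13.25, and Dlk1 (−4.10), Rian (−4.36) and Meg3 (−3.73), which lie in 1 imprinted cluster, fell together. Among the members that rose was Igfbp1, described above. Igf1, which the adult liver releases under growth hormone, was 7.93 against 7.86 to 8.45, and the growth hormone receptor Ghr was 11.45 against 11.67 to 12.45, and neither passed. Without MEF replicate 1 Ghr was lower (adjusted p = 0.000516, limma).

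Of 42 cell division genes 5 were lower in pHep (11.9%, against 15.5% of all genes), none was higher and 37 did not pass, with a median difference of −2.16. Their mean level was 8.03 on the pHep array, 8.30 on MEF replicate 1 and 10.71 to 10.82 on MEF replicates 2 to 4, so that 1 MEF array stood next to pHep and the others well above both. Mki67, the proliferation marker, stood at 8.78 against 8.18, 11.55, 11.36 and 11.57, Cdk1, the kinase that drives mitosis, at 8.22 against 9.30, 11.99, 11.90 and 11.94, and Top2a at 8.75 against 8.86, 11.63, 11.51 and 11.59. Without MEF replicate 1 all 42 passed as lower. The members that passed with all arrays were Tpx2 (−3.53), Rrm2 (−3.01), Rrm1 (−2.38), Ccne1 (−1.66) and E2f1 (−0.88), of which Tpx2 and Rrm1 no longer passed without 1 of MEF replicates 2 to 4 (adjusted p = 0.0957 to 0.0983 and 0.0701 to 0.0738, limma). Cdkn2a, which encodes inhibitors of cell division, was 9.13 in pHep, 12.93 on MEF replicate 1 and 7.75 to 8.03 on replicates 2 to 4, and without MEF replicate 1 it was higher in pHep by 1.23 (adjusted p = 0.000346, limma). Of the inhibitors and growth arrest genes, 2 of 20 were higher, among them Cdkn1b (1.39), and 5 were lower, with 7 and 8 without MEF replicate 1. The promoters of the cell division genes carried letters known from that group: 16 of 38 windows (42.1%) held TTTGAA, the core of the CHR element, against 17.9% of all windows, and 29 of 38 (76.3%) held CCAAT, against 37.4%, on either strand. Over the windows of the genes tested these shares were 13.4% and 37.4%.

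**Figure D5:**
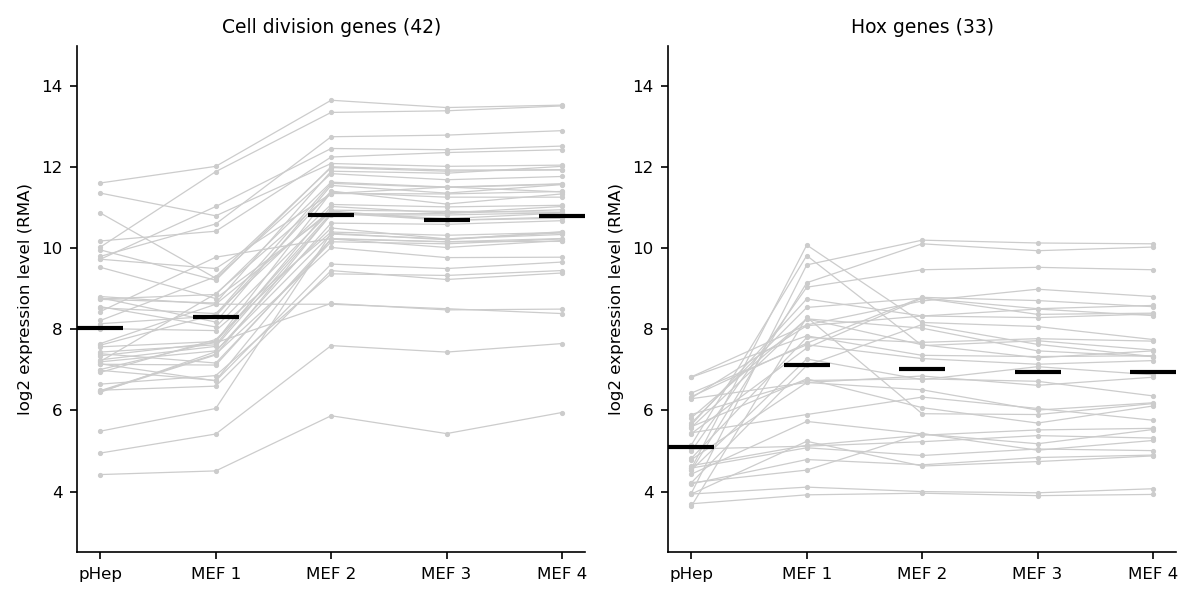
Log2 expression levels of 42 cell division genes (left) and 33 Hox genes (right) on the pHep array and MEF replicates 1 to 4, with 1 thin line joining the values of each gene and a black bar at the mean of the genes on each array. The mean of the cell division genes was 8.03 on pHep, 8.30 on MEF replicate 1 and 10.71 to 10.82 on replicates 2 to 4, while the Hox genes were lowest on pHep.

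Immediate early genes answer to stress and growth factors within minutes. Of 39 immediate early and stress genes, 12 were higher and 9 lower, and the median was 0.46. Tnfaip3, a brake on NF-kB signalling, rose by 2.77, Atf3 by 2.49 and Zfp36 by 2.25. Fos at 11.39 against 9.58, 10.54, 10.52 and 10.38 and Jun at 11.93 against 11.44, 10.79, 10.67 and 10.60 were high in both groups and did not pass with all arrays, Jun with an adjusted p of 0.00799 without MEF replicate 1 (limma), and Klf2 and Fosl1 fell by 2.70 and 2.61. Leaving out 1 of MEF replicates 2 to 4 left 7 or 8 higher and 5 or 6 lower. Of 36 chemokines and inflammatory mediators 10 were higher and 9 lower (median 0.12), with Ccl6 (4.69) and the neutrophil chemokines Cxcl2 (3.28) and Cxcl1 (2.41) up, and Ptgs2 (−8.94) and Il6 (−5.30) down. Without 1 of MEF replicates 2 to 4, 6 or 7 were higher and 7 lower. Of 36 genes of interferon response and antigen presentation 11 were higher and 3 lower (median 0.35). The liver class I gene H2-Q10 stood at 13.74 against 5.04 to 5.41 and the GTPase Iigp1 at 13.35 against 5.47 to 6.11, while the interferon-induced Gbp2 fell by 1.80. Without MEF replicate 1, 16 were higher and 4 lower.

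Besides those of bile ducts, markers of 1 other liver cell type were higher on the pHep array in most cases. In the list of 19 Kupffer cell and macrophage markers, 13 rose and 1 fell (median 1.54; 3 lower without MEF replicate 1, 8 or 9 higher without 1 of MEF replicates 2 to 4, and 8 with Gapdh centring), and their mean level was 8.73 in pHep against 6.50 to 7.27 in MEF. Vsig4, the complement receptor of resident macrophages, stood at 11.57 against 5.51, 5.38, 5.38 and 4.96, Marco, a scavenger receptor, rose by 4.09, and the C1q chains C1qa, C1qb and C1qc by 3.75, 4.78 and 4.18. Clec4f, the lectin that defines mouse Kupffer cells, was 6.08 against 6.74, 6.48, 6.46 and 6.75, Timd4 4.50 against 4.29 to 4.59 and Adgre1, a surface antigen of mouse macrophages, 7.69 against 7.13 to 7.50, and none of them passed, Clec4f with an adjusted p of 0.0201 and a lower level in pHep without MEF replicate 1 (limma). The part of macrophage RNA in the acute phase, complement, chemokine and interferon lists was not tested. Of 20 liver endothelial markers none was higher and 2 were lower (10%, against 15.5% of all genes), and 1 was higher and 6 lower without MEF replicate 1. Stab2 stood at 6.05 against 5.60 to 6.15. Of 15 stellate cell markers 1 was higher, Reln (1.53), and 5 were lower (2 higher and 7 lower without MEF replicate 1, and 2 or 3 lower without 1 of the others). Of 17 lymphocyte and granulocyte markers and 10 red cell and platelet genes none was higher, and 1 (5.9%) and 3 (30%) were lower. Among them was the platelet chemokine Ppbp (−6.16). Without MEF replicate 1 the counts of lower genes were 2 and 8, and 1 white cell marker was higher.

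As reference, 18 ribosomal and housekeeping genes had a median of −0.40, with 6 lower and none higher (13 lower and 3 higher without MEF replicate 1, and 2 lower with Gapdh centring). Of 12 pluripotency genes 4 were lower and none higher (7 lower without MEF replicate 1, and 2 or 3 without 1 of replicates 2 to 4), and Pou5f1, which encodes Oct4, stood at 5.05 in pHep and 5.01, 5.26, 4.99 and 5.0 in MEF, so that it was low in both groups.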

How the data were processed

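RNA of pHep, MEF and iHepSC was hybridised to Affymetrix mouse expression arrays. The authors deposited log2 expression levels of 45101 probe sets, made by RMA (background correction, quantile normalization and summary per probe set), and the version of the RMA software is not given in the sources used here. Quantile normalization sets all arrays to close to 1 distribution, so that differences are relative to the other genes of an array. Precision is limited by how many arrays there are, as they hold no counts.

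The array's annotation table named the gene of each probe set. Of them, 34945 had 1 symbol, 932 had several and 9160 had none, and 64 were controls. Each of 18193 genes was read by its brightest probe set on average over the 7 arrays, which matters for 9010 genes with more than 1, and no filter on dim values was applied. Groups came from the labels. pHep was set against MEF by lmFit and eBayes of limma (3.58.1, R 4.3.3) on all 7 arrays with 3 group means, which left 4 residual degrees of freedom beside a prior with 2.11 degrees of freedom and an SD of 0.162. The Benjamini-Hochberg adjustment ran over every gene, and 0.05 was the threshold. The model was tested on simulated data. Gene lists were described by counts and medians, with no set test. Promoters of RefSeq (GRCm38.p6) were searched for motifs on both strands. Python 3.11.15 with pandas 2.3.3, numpy 2.4.6 and matplotlib 3.10.9 served for tables and plots.

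The comparison, the gene lists and the rule for named genes were chosen with earlier results of these data known. Named genes are the 15 largest rises and 15 largest falls past the test; in each list up to 3 rises and 2 falls, and members past the test against the list where there were at most 5; 13 hepatocyte and 13 fibroblast markers; and Pou5f1, Xist, Mki67, Cdkn2a and Gapdh. Abcb11, Acta2, Actb, Actg1, Adgre1, Afp, Agxt, Asl, Ass1, Axin2, C1qa, Cdk1, Cebpa, Cebpb, Ces1d, Ces1f, Clec4f, Col18a1, Col4a1, Col4a2, Cxcl1, Cyp1a2, Cyp2c54, Cyp3a11, Cyp4a12a, Cyp4a14, Cyp7a1, Cyp8b1, F12, F2, Fbp1, Fn1, Fos, Foxa1, Foxa2, Ghr, Gjb1, Gjb2, Glul, Gys2, Hal, Hoxa5, Hoxd10, Hp, Hsd17b13, Hsd3b5, Igf1, Igf2, Jun, Khk, Kng1, Krt18, Krt19, Krt8, Lgr5, Marco, Meg3, Mttp, Nr1h3, Nr1i2, Nr1i3, Onecut1, Orm1, Otc, Pck1, Plg, Prrx2, Rhbg, Rxra, Saa1, Saa2, Saa3, Serpina6, Serpinh1, Slc10a1, Slco1a1, Sox9, Stab2, Thbs1, Timd4, Tnc, Top2a and Zeb2 were chosen after their values were seen. List genes without a row in the gene table were not analysed here.

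Alternatives were the mean of all probe sets, leaving out _x_at and _s_at probe sets, a filter at a log2 level of 6, quantile normalization again, centring on the median or on the Gapdh control probe sets, trend and robust fitting, a 2-fold floor, the methods' t-test, pHep and MEF arrays alone, MEF replicate 1 alone, MEF replicates 2 to 4 averaged, the replicate number as a block, and leaving out each MEF or iHepSC array.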

Additional observations from a re-analysis of the deposited data

Results flagged for a closer look

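A level on 1 MEF array was taken as far from the others where its gap to the nearest, as a share of the range of the 4 arrays, exceeded Dixon's critical value. Chance gives this in about 1 in 20 groups. It was met by 4276 of 18193 genes (23.5%), and in 3724 of these the array apart was MEF replicate 1. Among the genes named in the report it was met by 57 of 223, by 53 on MEF replicate 1 and by 4 on another array. No explanation was tested.

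Several matrix genes were highest on MEF replicate 1. Col1a1 was 13.97 there against 12.97 to 13.02 on replicates 2 to 4, Col1a2 14.91 against 14.07 to 14.08, Col4a1 13.52 against 12.50 to 12.60, Col4a2 12.46 against 11.27 to 11.38, Col18a1 11.22 against 8.82 to 9.04 and Col6a2 12.80 against 11.96 to 12.07. Serpinh1 was 13.77 against 13.33 to 13.35, Loxl1 12.50 against 11.85 to 11.92, Fn1 14.62 against 13.76 to 13.81, Fbln5 13.34 against 12.36 to 12.47, Prelp 8.75 against 7.18 to 7.42, and Lum 12.40 against 8.62 to 8.95. Other mesenchymal genes did the same, with Thy1 at 13.08 against 11.88 to 11.99, Cdh11 at 13.68 against 13.08 to 13.18, Prrx1 at 12.89 against 12.10 to 12.16, Twist1 at 10.43 against 8.59 to 8.80, Actg2 at 12.88 against 12.73 to 12.75, Stmn2 at 12.55 against 11.37 to 11.52, Nr2f1 at 9.62 against 8.59 to 8.72 and Hoxd10 at 8.30 against 5.90 to 6.17.

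Genes of secretion, signalling and metabolism that were higher there included Cdkn2a at 12.93 against 7.75 to 8.03, Cebpb at 12.04 against 10.27 to 10.43, Rxra at 9.19 against 7.97 to 8.05, Foxa1 at 6.65 against 6.05 to 6.09, Igf1 at 8.45 against 7.86 to 7.90, Ptx3 at 12.77 against 11.28 to 11.30, C1qc at 8.14 against 6.11 to 6.29 and C4bp at 6.48 against 5.25 to 5.32. Axin2 was 8.93 against 6.98 to 7.27, Plau 6.86 against 6.28 to 6.37, Reln 5.55 against 5.01 to 5.10, Slc2a3 9.87 against 7.94 to 8.14 and Cyp39a1 7.90 against 5.92 to 6.14.

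Division genes stood lower on MEF replicate 1. Mki67 was 8.18 against 11.36 to 11.57, Cdk1 9.30 against 11.90 to 11.99, Top2a 8.86 against 11.51 to 11.63, Tpx2 8.88 against 11.34 to 11.40, Rrm1 11.03 against 12.43 to 12.52 and Rrm2 11.89 against 13.35 to 13.51. So did the keratins Krt7 at 5.77 against 7.82 to 7.86, Krt8 at 6.92 against 8.69 to 8.82 and Krt19 at 7.78 against 9.39 to 9.67, and S1pr3 at 11.12 against 12.94 to 12.97, Crabp1 at 9.47 against 11.51 to 11.78, Dlk1 at 8.91 against 10.65 to 10.84, Cyp4a12a at 6.01 against 7.68 to 7.94, Cyp1b1 at 12.89 against 12.97 to 12.98, Hoxa5 at 9.04 against 9.47 to 9.53 and Hoxc8 at 9.59 against 10.11 to 10.20. Ghr was 11.67 against 12.37 to 12.45, Oat 12.62 against 12.85 to 12.88, Fos 9.58 against 10.38 to 10.54 and Tnfaip3 7.51 against 8.31 to 8.44.

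On other arrays, Fga was 4.5 on MEF replicate 3, Uox 6.61 on replicate 3, Gjb1 7.32 on replicate 4 and Pou5f1 5.26 on replicate 2, each above the other MEF arrays.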

How the results depend on the processing

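The direction of all 181 named genes that passed was the same under each of the 20 alternatives that gave a value, except for Epcam, which was 0.65 higher in pHep without probe sets of suffix _x_at or _s_at. The number of these that no longer passed was 51 with the replicate block, 30 by the methods' t-test after adjustment, 26 against a 2-fold change, 21 with MEF replicates 2 to 4 averaged, 12 with MEF replicate 1 as the only MEF array, and 0 to 5 under each other alternative. Of genes that had not passed, Cdkn2a lay between −0.50 and 1.23 when 1 array was left out, with the latter without MEF replicate 1, and Ces1d was higher by 1.17 as the mean of its probe sets. Counts of genes higher and lower were 2696 and 2814 with all arrays. Leaving out 1 array gave 2037 to 4917 higher and 1843 to 5743 lower, with the top of both ranges without MEF replicate 1. The counts were 1240 and 927 with MEF replicates 2 to 4 averaged as 1 sample, 1525 and 1380 with arrays centred on Gapdh, 824 and 568 against a 2-fold change, and 1292 and 1355 by the methods' t-test after adjustment (2614 and 3359 before). The other 8 settings moved neither count by more than 1.5 times. The replicate number as a block gave 465 higher and 315 lower. pHep and MEF share a single number. Same-numbered MEF and iHepSC arrays deviated from their group means at r = −0.222 and −0.207. The deviations of the iHepSC arrays mirror each other, so that these values are not separate and cannot decide whether the numbers pair arrays. The causes of these shifts were not tested. The share of calls that were higher was 48.9%, and between 43.8% and 59.6% under the alternatives.

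The number of arrays limits precision, with 1 of pHep and 4 of MEF that include 1 apart, and a second pHep preparation was not analysed here. A level near the floor of the scale bounds a difference from below. Of 86 named and called genes with several probe sets, 9 had a probe set with the other sign: Afp, Epcam, Kdm5d, Otc, Prrx1, Ptch1, Reln, Sox9 and Tnfaip3. In 5 more, Cyp1b1, Pck1, Ptn, Rxra and Spon2, a difference above 1 came with another probe set of the same sign and under 0.5.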
